A study of Homo sapiens with 4 samples.

Results

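Mitochondrial ribosomal proteins are encoded by nuclear genes, made in the cytosol and imported into mitochondria, where they assemble with mitochondrial rRNA into a small and a large subunit. The mitoribosome translates the respiratory chain subunits encoded in the mitochondrial genome. Part of its proteins descend from the bacterial ribosome, and the others were added in the mitochondrial lineage. The genes were chosen by name, as protein-coding genes whose current symbol is MRPS or MRPL followed by a number and at most 1 letter. This gave 77 of the 23459 genes counted, of which 26 belong to the small and 51 to the large subunit.

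RNA-Seq was performed on wild-type hTERT RPE-1 cells, a telomerase-immortalized human line from retinal pigment epithelium. All cells had been held for 48 h in 0.1% FBS and were then exposed to 200 μM merbarone, a catalytic inhibitor of type II DNA topoisomerases, for 4 h or for 8 h. There were 2 biological replicates per time. Every library was treated, so a difference between 8 h and 4 h cannot be told apart from longer time in low serum, and untreated samples were not analysed here. Read counts summed to between 8064450 and 10324697 per library. Keratins KRT8, KRT18 and KRT7 were abundant and KRT19 was listed at 0. Of 12 genes of pigment epithelium identity, 4 had enough counts to be tested (MITF, OTX2, RDH5 and PMEL), while RPE65 had 2 to 7 counts and TYR and CRX none. In bulk RNA, fewer cells of a type and less RNA per cell cannot be told apart.

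A gene was tested if its CPM (its count scaled to the total of the library) exceeded 1 in at least 2 libraries, and 74 of the 77 mitochondrial ribosomal protein genes passed, among 12559 genes in all. The rest lay at or near 0 counts. MRPL53 had 0 counts in each library, and 99.2% of its exon bases lie in CCDC142 on the same strand. MRPS24 had 3 and 2 counts at 4 h and 3 and 7 at 8 h, and 90.9% of its exon bases are shared with the readthrough gene URGCP-MRPS24. MRPL38 had 0 and 3 counts at 4 h and 2 and 0 at 8 h. How the counting treated shared bases is not given in the sources used here, so these values do not show that the genes are silent. The genes just inside the filter were MRPS28, with 34 and 37 counts at 4 h and 25 and 4 at 8 h, and MRPS18C, with 46 and 33 and then 37 and 23.

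Between 4 h and 8 h the mitochondrial ribosomal protein genes moved little and in both directions. By edgeR's quasi-likelihood test with Benjamini-Hochberg adjustment over all 12559 genes, 9 were higher and 13 lower at 8 h (adjusted p below 0.05), and 52 were not called. That is 29.7% called, beside 38.8% of all genes tested. By direction, the background was 19.9% higher and 18.8% lower. None passed the stricter rule that also asks for an absolute log2 fold change (log2FC) above 1, which 5.33% of all genes passed. The log2FC of the 74 genes ran from -0.99 to 0.90 with a median of -0.04 (-0.00 over all genes), and 69 lay within 0.5 of 0. The median absolute log2FC was 0.19, beside 0.29 for all genes. For 41 of the 52 genes without a call, the whole 95% interval of the log2FC lay within 0.5 of 0. Both 8 h libraries lay above both 4 h libraries for 23 genes and below them for 26, beside 34.8% and 34.9% of all genes.

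**Figure D1:**
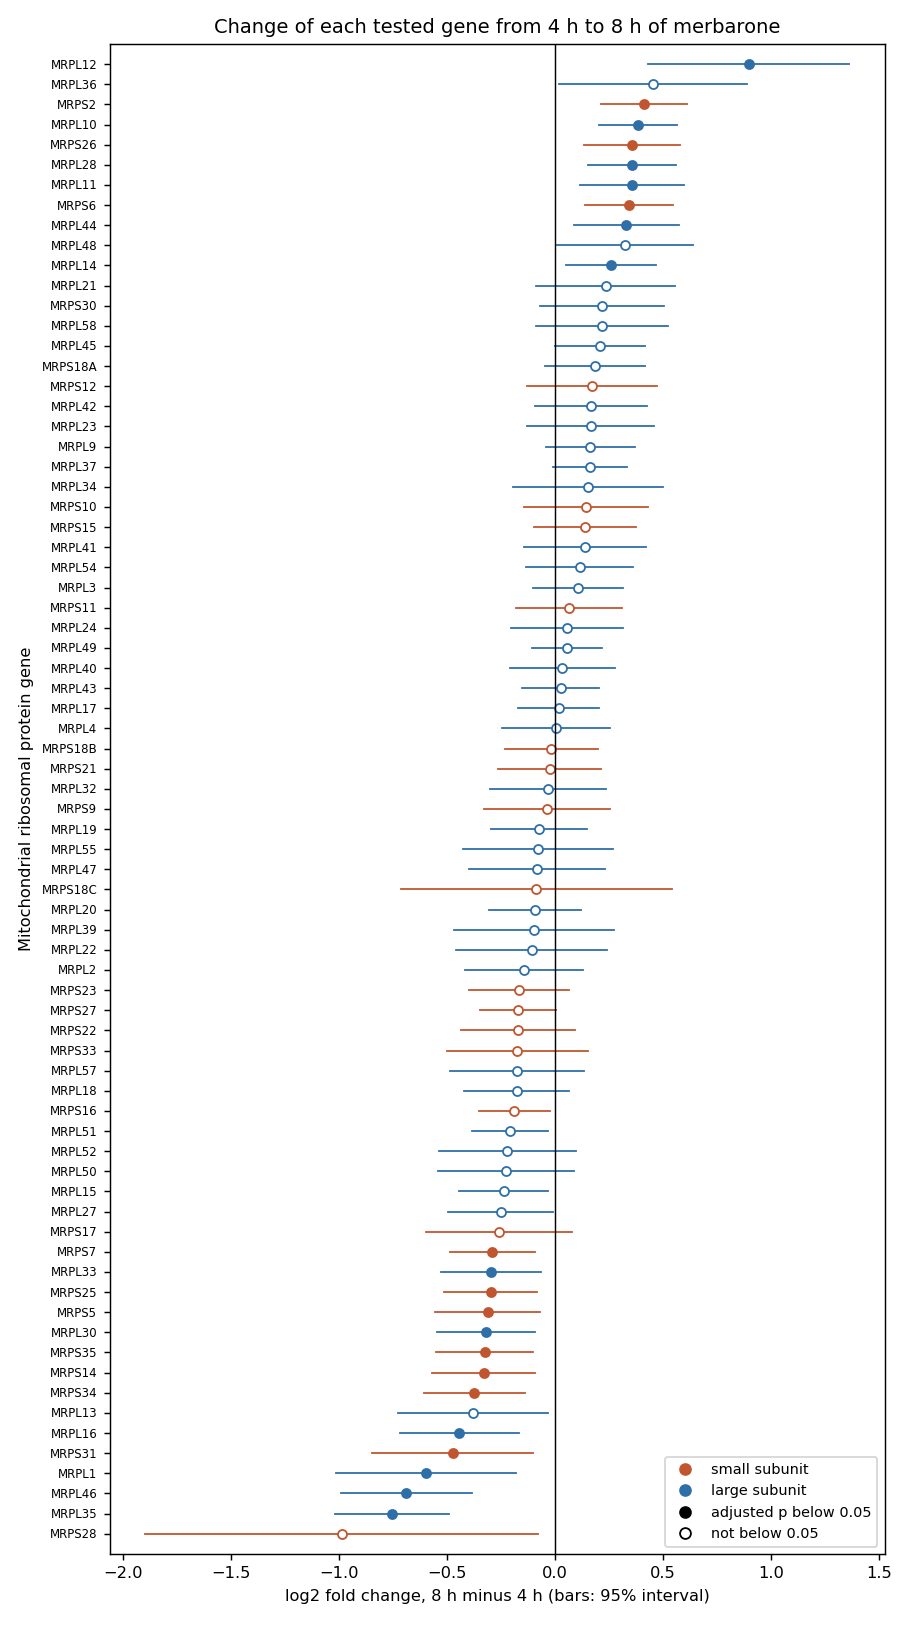
The log2FC from 4 h to 8 h (x axis) of each of the 74 tested genes (y axis), with its 95% interval, coloured by subunit, filled where the adjusted p was below 0.05. MRPL12 stands highest at 0.90, MRPS28 lowest at -0.99 with the widest interval, and most points lie within 0.5 of 0. Without TMM factors the median of all genes is -0.11.

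The counts of calls depended on single libraries. Among all genes too, fewer were called in each direction without either 4 h library, so such losses are not particular to this family. Without 4 h replicate 1, 2 were higher and 4 lower. Without 4 h replicate 2 these were 4 and 3, without 8 h replicate 1 they were 7 and 18, and without 8 h replicate 2 they were 9 and 7. MRPL10 (higher), MRPL35 and MRPL46 (lower) kept their call without any 1 library and under all 14 alternatives tried. DESeq2 called 8 of the 22. These were MRPL12, MRPS2, MRPL10, MRPL28 and MRPS6 among those that rose and MRPS34, MRPL46 and MRPL35 among those that fell. Among all genes DESeq2 called 1782 higher and 1490 lower, also fewer than the 2500 and 2367 of the main fit. When TMM factors were left out, the all-gene median moved to -0.11, 4 of these genes were called higher and 20 lower, and among all genes 1698 were higher and 3289 lower in place of 2500 and 2367.

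The genes that rose included MRPL10, MRPL11 and MRPL12 of the L7/L12 stalk, the flexible arm of the large subunit that recruits translation factors. MRPL12 (chr17:79670397-79674547, plus strand, GRCh37), the mitochondrial L7/L12 protein, had 9.45 and 6.998 TMM-normalized CPM at 4 h and 11.9 and 19.1 at 8 h. Both 8 h libraries were higher, but they differed from each other more than the 4 h libraries did. Its log2FC was 0.90 ± 0.22 (SE, n = 2 per time, edgeR adjusted p = 0.00341). Leaving out 4 h replicate 2 gave 0.70 and leaving out 8 h replicate 2 gave 0.54, and the call was lost in both fits. MRPL10 (chr17:45900638-45908907, minus strand), which anchors the L7/L12 copies, had 74.9 and 75.9 CPM at 4 h and 97.7 and 99.3 at 8 h. Replicates were close and the times far apart, with a log2FC of 0.39 ± 0.09 (edgeR adjusted p = 0.00151). MRPL11 (chr11:66202546-66234209, minus strand), at the stalk base, had 30.9 and 30.1 CPM and then 40.2 and 37.7. Its log2FC was 0.36 ± 0.11 (edgeR adjusted p = 0.0189), and its call was lost without 4 h replicate 1, 4 h replicate 2 or 8 h replicate 1, with library-size scaling and with DESeq2.

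The sequence directly upstream of MRPL11 and MRPL12 is shown as an example of genes that rose, beside that of MRPL1, which fell, and MRPS12, which was not called. Each run ends at the base before the start of the canonical transcript and reads 5′ to 3′ on the gene's strand (GRCh37). Bases that lie in exons of a neighbour are left out. For MRPL11 the canonical transcript starts inside the gene interval given above, so its run lies within that interval. Capitals mark the CCAAT box.
MRPL11, chr11:66206320-66206569, minus strand: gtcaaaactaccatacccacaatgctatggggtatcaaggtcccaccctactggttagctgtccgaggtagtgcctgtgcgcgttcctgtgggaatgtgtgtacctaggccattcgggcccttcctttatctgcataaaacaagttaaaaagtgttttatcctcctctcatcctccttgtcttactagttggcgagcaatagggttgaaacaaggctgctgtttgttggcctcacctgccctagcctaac
MRPL12, chr17:79670348-79670396, plus strand: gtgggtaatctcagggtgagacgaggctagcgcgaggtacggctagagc
MRPL1, chr4:78783734-78783983, plus strand: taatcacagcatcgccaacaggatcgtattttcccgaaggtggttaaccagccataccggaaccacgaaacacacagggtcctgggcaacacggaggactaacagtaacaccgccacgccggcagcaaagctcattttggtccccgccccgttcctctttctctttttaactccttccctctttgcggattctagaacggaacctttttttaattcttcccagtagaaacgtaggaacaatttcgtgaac
MRPS12, chr19:39421404-39421583, plus strand: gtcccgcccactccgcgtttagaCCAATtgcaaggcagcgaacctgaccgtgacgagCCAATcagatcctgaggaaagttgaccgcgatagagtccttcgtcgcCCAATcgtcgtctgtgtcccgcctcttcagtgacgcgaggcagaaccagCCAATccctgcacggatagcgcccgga

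MRPL11, MRPL12 and MRPL1 held none of the motifs named here in the 250 bases before their start. MRPS12, in the stretch it shares with SARS2, held 4 CCAAT boxes. Over the 74 tested genes, the ETS letters CCGGAAG stood in 24 of the 250-base windows (32.4%), beside 16.9% of 11776 tested protein-coding genes. Of the genes called, 2 of 9 that rose and 4 of 13 that fell held it, so the stretches printed here do not stand for all genes called. AAGATGGCG, the YY1 letters, stood in 3 (4.05%, beside 1.10%), the E-box CACGTG in 6 (8.11%, beside 9.22%) and CCAAT in 21 (28.4%, beside 35.0%). Both strands were searched, none of these motifs contains another, and a match is a description of letters only. Other motifs that were searched are not reported here, so those named are not the whole search. Median GC content of the windows was 59.8%, beside 66.4% for all, and its part in these shares was not tested.

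The other genes that rose were spread over both subunits. MRPS2, a small subunit protein with a bacterial counterpart, had 56.0 and 61.9 CPM at 4 h and 76.6 and 80.4 at 8 h (log2FC 0.41 ± 0.10, edgeR adjusted p = 0.00194). MRPS26, a protein specific to mitochondrial ribosomes, had 36.8 and 40.0 and then 49.0 and 49.5 (0.36 ± 0.11, edgeR adjusted p = 0.0118). MRPL28 had 57.9 and 57.0 and then 69.2 and 78.3 (0.36 ± 0.10, edgeR adjusted p = 0.0064). In each of these the times did not overlap, and the call was lost without 4 h replicate 1. That of MRPL28 was also lost without 4 h replicate 2, and that of MRPS26 with library-size scaling (edgeR adjusted p = 0.0672) and with DESeq2. MRPS6 had 62.6 and 62.4 CPM and then 85.3 and 73.1 (0.34 ± 0.10, edgeR adjusted p = 0.00856), and 18.0% of its exon bases are shared with SLC5A3 on the same strand. MRPL44, a large subunit protein with a ribonuclease III-like fold, had 34.8 and 40.5 and then 50.7 and 43.8 (0.33 ± 0.12, edgeR adjusted p = 0.0297). MRPL14, to which the assembly factor MALSU1 binds, was the last of the 9 at 0.26 (edgeR adjusted p = 0.0468) and held its call in 5 of 14 alternatives. MRPS6 lost its call without either 4 h library, without 8 h replicate 1 and with library-size scaling. MRPL44 lost its call without 4 h replicate 1 or 8 h replicate 1, with library-size and upper-quartile scaling and with DESeq2.

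**Figure D2:**
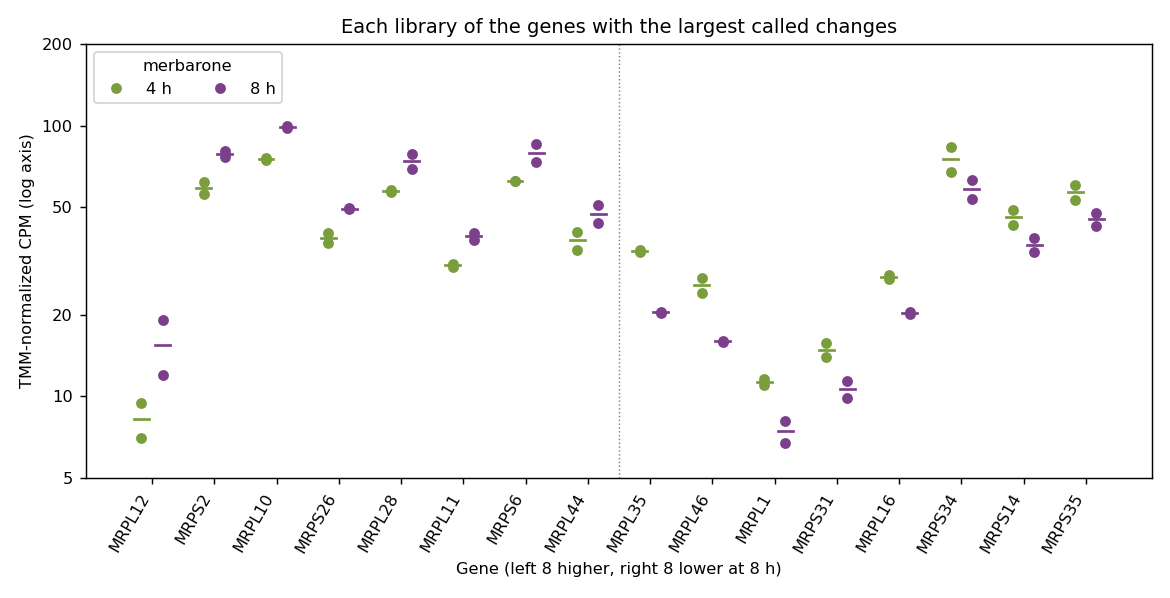
TMM-normalized CPM (y axis, log scale) in each library for the 8 largest rises and the 8 largest falls among genes with adjusted p below 0.05. Points are libraries and bars are means of 2. The times separate in every gene shown, and MRPL12 has the widest spread between its 8 h libraries (11.9 and 19.1).

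The clearest falls were in the large subunit. MRPL35 (chr2:86426478-86440913, plus strand), the mitochondrial L35 protein, had 34.8 and 34.1 CPM at 4 h and 20.4 and 20.5 at 8 h. Its log2FC was -0.76 ± 0.13 (edgeR adjusted p = 0.000108), and leaving out any 1 library kept it between -0.77 and -0.75. MRPL46 (chr15:89002708-89010621, minus strand), a mitochondrion-specific protein, had 24.1 and 27.4 CPM and then 15.9 and 16.1 (-0.69 ± 0.14, edgeR adjusted p = 0.000933). In both genes the spread within a time was small beside the gap between the times. MRPL1, the L1 stalk protein, had 11.6 and 10.97 CPM and then 8.11 and 6.74 (-0.60 ± 0.20, edgeR adjusted p = 0.0232). MRPL16, which lies near the peptidyl transferase centre in bacterial ribosomes, had 28.0 and 27.1 and then 20.5 and 20.1 (-0.44 ± 0.13, edgeR adjusted p = 0.0126). MRPL16 was tighter than MRPL1. Both lost their call with DESeq2 and without either 4 h library, MRPL1 also without 8 h replicate 2 and with a correction for mean log2-CPM.

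The small subunit had more falls than rises. MRPS31, specific to mitochondria, had 13.9 and 15.7 CPM at 4 h and 11.4 and 9.85 at 8 h (-0.47 ± 0.18, edgeR adjusted p = 0.0422). MRPS34, also specific to mitochondria, had 67.4 and 83.4 and then 53.6 and 63.1 (-0.37 ± 0.11, edgeR adjusted p = 0.0124), and 32.6% of its exon bases lie opposite EME2. The 4 h libraries of MRPS34 differed by more than its lowest 4 h and highest 8 h values did, and it lost its call without 4 h replicate 2 or 8 h replicate 1. MRPS14 had 42.9 and 48.6 CPM and then 38.4 and 34.2 (-0.33 ± 0.11, edgeR adjusted p = 0.028). MRPS35, another mitochondrion-specific protein, had 60.2 and 53.1 and then 47.6 and 42.6 (-0.32 ± 0.11, edgeR adjusted p = 0.0217). The times of both separated, though their calls were lost without 8 h replicate 2 and without 1 of the 4 h libraries each. MRPS31 lost its call without either 4 h library or 8 h replicate 2 and with a correction for GC content or mean log2-CPM. The other falls, in MRPL30, MRPS5, MRPS25, MRPL33 and MRPS7, lay between -0.32 and -0.29, and each lost its call without either 4 h library. Of the falls named in this paragraph, DESeq2 called only that of MRPS34.

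By subunit, 3 of 25 small subunit genes were higher and 7 lower with a median log2FC of -0.17, while 6 of 49 large subunit genes were higher and 6 lower with a median of 0.03. These are 40.0% and 24.5% called, beside 38.8% of all genes. Of the small subunit genes 18 lay below 0, and of the large subunit genes 27 lay above 0. Over all 12559 genes tested, 6309 lay below 0 and 6250 above. With library size alone as the scale, the medians were -0.28 and -0.08. The mitochondrion-specific small subunit proteins had 1 higher and 4 lower of 10, with 9 below 0. The 19 mitochondrion-specific proteins of the large subunit had 1 higher and 1 lower, with a median of 0.11. Genes with a bacterial counterpart had medians of -0.04 (15 genes, small subunit) and -0.05 (30 genes, large subunit). The difference between subunits was not tested, since genes are not replicates of a time. As a whole the family took 0.338% and 0.349% of counts at 4 h and 0.320% and 0.310% at 8 h, and its summed TMM-normalized CPM was 3268 and 3360 and then 3299 and 3237. The first measure was lower at 8 h in both libraries, and the second overlapped between times.

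Members with a special place in the ribosome differed from each other. MRPS12, a core protein of the decoding centre, had 27.2 and 26.1 CPM at 4 h and 25.5 and 35.0 at 8 h (log2FC 0.17, 95% interval -0.13 to 0.47, edgeR adjusted p = 0.362), and its result rested on the 8 h libraries. Without 8 h replicate 1 it was called higher (0.39, edgeR adjusted p = 0.0276), and without 8 h replicate 2 its sign turned (-0.06). The MRPS18 paralogs occupy separate places, MRPS18A in the large subunit and the others in the small. MRPS18A had 37.2 and 41.0 CPM and then 42.4 and 46.8 (0.19, 95% interval -0.05 to 0.42). MRPS18B had 51.2 and 48.8 and then 47.6 and 51.5 (-0.02, 95% interval -0.23 to 0.20). MRPS18C had 4.31 and 3.12 and then 3.95 and 2.98 (-0.09, 95% interval -0.71 to 0.54). None was called, and for MRPS18C, of which 83.6% of exon bases lie opposite ABRAXAS1, the interval left a wide range. The lowest log2FC of the family, that of MRPS28 (-0.99, 95% interval -1.90 to -0.08, edgeR adjusted p = 0.0802), rested on 8 h replicate 2, without which it was -0.32, and it was -2.66 and called without 8 h replicate 1 (edgeR adjusted p = 0.000241).

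Levels per kilobase of the canonical transcript spanned from 2.32 to 153 TMM-normalized CPM per kb, with a median of 28.3 and a middle range of 12.6 to 46.1. MRPL51 was highest, at 156 and 173 CPM per kb at 4 h and 146 and 138 at 8 h. MRPL33 followed at 110 and 115 and then 101 and 81.4, and MRPL43 at 94.8 and 98.2 and then 101 and 95.9. MRPL51 lay above the other pair in every library, while MRPL33 and MRPL43 overlapped. MRPS18C was lowest at 2.78 and 2.01 and then 2.55 and 1.92 CPM per kb. MRPL42 had 2.91 and 2.22 and then 2.83 and 2.94, on a canonical transcript of 15557 bases. MRPS28 had 3.80 and 4.18 and then 3.18 and 0.62, so these 3 overlapped. Reads across splice junctions and from repeated sequence could not be mapped, so levels were also set per 1000 read-length windows that occur once in the genome. MRPL51, MRPL33 and MRPL43 then had 204, 194 and 125. At the other end MRPL42 was lowest at 2.81, below MRPS18C at 3.09 and MRPS28 at 4.00. The order of the lowest genes thus depended on the scale. Both scales divide by the canonical transcript, so the low place of MRPL42 depends on its length and does not show that it had few reads. The order over all genes of the family was close on both scales (Spearman's rho 0.96 across 74 genes).

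The genes that rose were richer in GC than those that fell. Pearson's r between log2FC and GC content was 0.46 across the 74 genes (Spearman's rho 0.47) and 0.14 across 12391 genes (0.15), where points share libraries and genes are not independent. Median GC content was 55.3% for the genes that rose and 41.5% for those that fell, beside 48.0% for the family and for all genes. Of the 9 that rose, 7 lay above the median of all genes, and of the 13 that fell, 9 lay below it. MRPS34 fell at 64.6% GC and MRPL44 rose at 44.5%. With the GC trend of each library taken out, 11 were higher and 11 lower, beside 2869 and 2566 of 12391 genes in all. Of the 22 calls, 20 were shared, and MRPL12 was at 0.70 and MRPS34 at -0.56. The part of GC content in the rest was not tested.

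**Figure D3:**
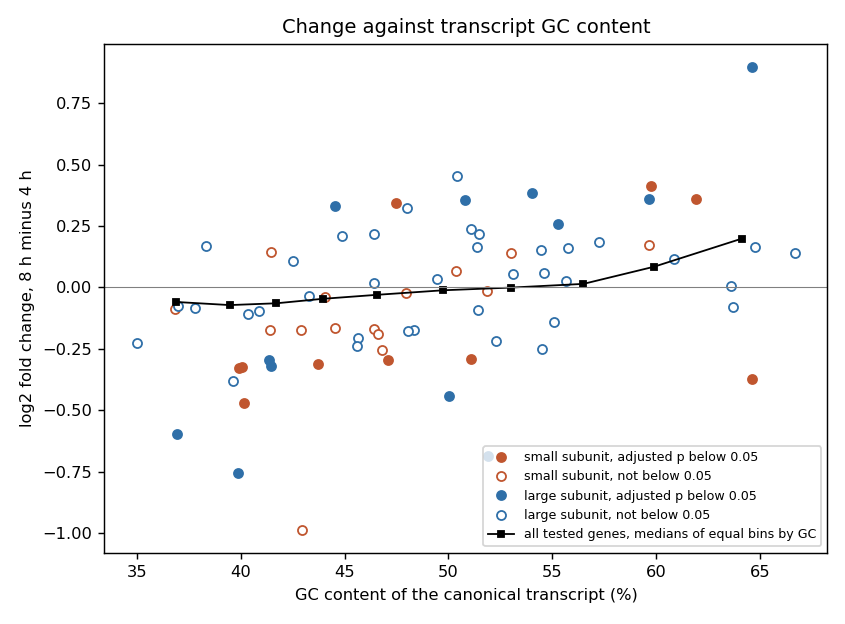
The log2FC from 4 h to 8 h (y axis) against GC content of the canonical transcript in percent (x axis) for the 74 genes, filled where adjusted p was below 0.05. The line joins the medians of all tested genes in bins of equal size by GC content and rises less steeply than the points, for which r was 0.46. Without TMM factors the median of all genes is -0.11.

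Many of these genes start back to back with another gene. For 27 of them a gene on the other strand started within 1000 bases. In 25 pairs both genes were tested, and in 24 of these the neighbour was not itself a mitochondrial ribosomal protein gene. Of the 24 pairs, 17 had the same sign, and this count was not compared with pairs of other genes. Among these pairs, the starts of MRPS34 and EME2 overlap rather than lie back to back. The ribosomal gene was called in 5 (20.8%) and the neighbour in 11 (45.8%), beside 38.8% of all genes. The closest pair was MRPL27 and EME1, a structure-specific endonuclease subunit, 45 bases apart, at -0.25 (edgeR adjusted p = 0.0942) and -1.53 (edgeR adjusted p = 2.45e-06). MRPL43 and TWNK, the mitochondrial DNA helicase, 46 bases apart, were at 0.03 and 0.58, and MRPL21 and IGHMBP2, 59 bases apart, at 0.24 and 0.57. In these 3 pairs the neighbour was called and the ribosomal gene was not. MRPL14 and TMEM63B, 102 bases apart, were both called, at 0.26 and 0.40. The other pair with both genes called, named after its values were seen, was MRPS7 and GGA3, 273 bases apart, which moved in opposite directions (-0.29 and 0.36). MRPL46 and MRPS11 start 320 bases apart, and MRPL46 fell by 0.69 on the log2 scale while MRPS11 was at 0.07 (95% interval -0.18 to 0.31). The intervals of that pair did not overlap, and the difference itself was not tested.

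**Figure D4:**
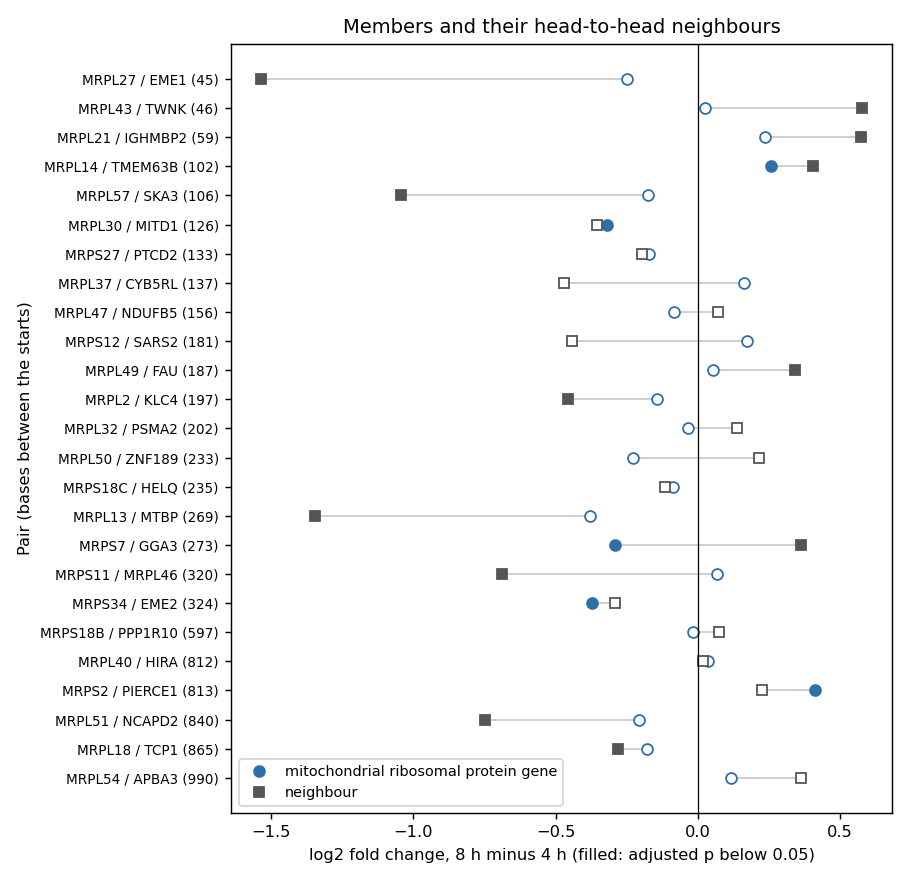
The log2FC from 4 h to 8 h (x axis) of each gene and its head-to-head neighbour (y axis, pairs in order of the distance between starts in bases), circles for the mitochondrial ribosomal protein gene and squares for the neighbour, filled where adjusted p was below 0.05. Squares reach -1.53 (EME1), while no circle lies beyond 0.5 from 0 (MRPL46 is shown as the neighbour of MRPS11). The starts of MRPS34 and EME2 overlap. Without TMM factors the median of all genes is -0.11.

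Subunits of the mitoribosome whose symbols are not MRPS or MRPL went in both directions too. CHCHD1 had 42.5 and 37.4 CPM at 4 h and 32.1 and 31.0 at 8 h (-0.34, edgeR adjusted p = 0.0275) and GADD45GIP1 had 48.0 and 49.4 and then 56.3 and 61.6 (0.27, edgeR adjusted p = 0.0374). The call of CHCHD1 was lost in 3 of 14 alternatives (DESeq2, without 4 h replicate 1 and without 8 h replicate 2) and that of GADD45GIP1 in 8, among them library-size scaling, DESeq2, the GC correction and leaving out 4 h replicate 1, 4 h replicate 2 or 8 h replicate 2. DAP3 was at 0.12, PTCD3 at -0.22 and AURKAIP1 at 0.24, none called. Of 16 mitochondrial translation factors, 1 was higher (OXA1L, the inner membrane insertase, 0.31) and 3 lower (MTRF1, a release factor, -0.98; TSFM, an elongation factor, -0.43; GFM2, a ribosome recycling factor, -0.33), or 4 of 16 called beside 38.8% of all genes. Of 29 assembly and rRNA modification factors, 4 were higher, with NOA1 at 0.52, MIEF1 at 0.45 and MALSU1 at 0.38, and 5 lower, with TFB1M, an rRNA methyltransferase, at -0.59, MTERF4 at -0.52 and RBFA at -0.42 (31.0% called). Of 9 nuclear regulators tested, PPRC1 (0.64), NRF1 (0.50) and CREB1 (0.44) were higher and MYC was lower (-0.19), or 44.4% called. Of the genes named from these 3 lists, MTRF1, NOA1, MIEF1, PPRC1 and CREB1 kept their call without any 1 library. TSFM lost it without 4 h replicate 1, TFB1M and NRF1 without 4 h replicate 2, and OXA1L without either 4 h library. RBFA lost it without each library in turn, and GFM2, MALSU1, MTERF4 and MYC without any 1 library other than 8 h replicate 2. With library-size scaling, OXA1L (edgeR adjusted p = 0.0573) and MALSU1 (edgeR adjusted p = 0.139) lost their calls too. The 78 tested cytosolic ribosomal protein genes had 36 higher and 5 lower (52.6% called, median 0.24), and 74 nuclear respiratory chain subunits 17 higher and 6 lower (31.1%, median 0.08). The transcripts of the mitochondrial genome, which the mitoribosome translates, were not analysed here.

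**Figure D5:**
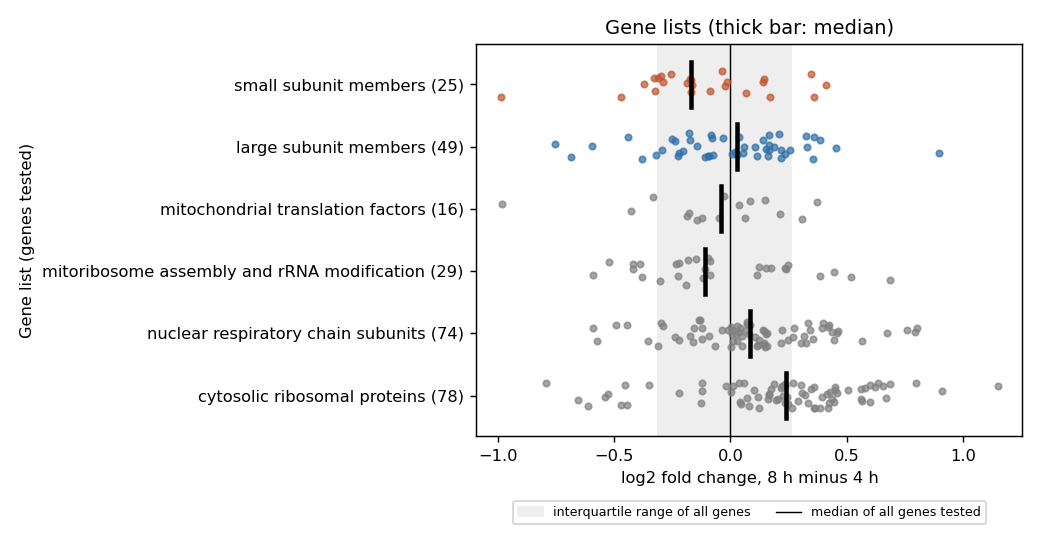
The log2FC from 4 h to 8 h (x axis) of each tested gene, by gene list (y axis), with the median as a thick bar and the interquartile range of all tested genes shaded. The medians of the small and large subunit genes, -0.17 and 0.03, lie on either side of the median of all genes, and that of the cytosolic ribosomal proteins is 0.24. Without TMM factors the median of all genes is -0.11.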

How the data were processed

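The authors mapped single 75-base reads to hg19 with Bowtie 1.2.0, keeping reads with 1 position in the genome, and deposited raw read counts per gene with NCBI Gene identifiers, neither normalized nor filtered. The submitters' processing notes also name deepTools 2.4.1. The counting tool, its annotation and its use of strand are not given in the sources used here. Bowtie does not align across splice junctions, so short exons lose reads.

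Symbols came from RefSeq (GRCh38.p14, names only; 23308 of 23459 identifiers matched) and positions, transcripts and promoter sequence from GENCODE and the genome of GRCh37, the build of the files. Genes needed a CPM above 1 in 2 or more of the libraries (CPM 1 is 8.06 to 10.3 counts), TMM factors were 0.958 to 1.04, and 8 h was tested against 4 h with edgeR 4.0.16 (glmQLFit, glmQLFTest) in R 4.3.3 with time as the only term. CPM in the text are divided by TMM-scaled library sizes. DESeq2 1.42.0, limma-voom (limma 3.58.1), other scalings, filters, trend corrections, a replicate block and leaving out each library were alternatives. The tests were run on simulated counts first. At a simulated absolute log2FC of 0.5, edgeR recovered 58% of 100 changed genes and DESeq2 36%. At 1 these were 89% and 78%, and false calls among the genes left unchanged were 8 and 0. The simulation changed 100 of 12559 genes at each size, a far smaller share than the 38.8% called in the data. Its recovery therefore need not hold for the data. The genes, the gene lists and the tests were chosen with earlier results of these data known. Genes named in full were the 8 largest called rises and falls, the 3 highest and lowest levels per kb, genes at the filter, the MRPS18 paralogs, the stalk genes and MRPS12; from other lists at most 3 called genes in each direction and every subunit with another symbol; and the 4 closest neighbours. Some items that these rules name are not reported here. Leukocyte, endothelial, photoreceptor and neuronal markers were near 0 counts except KDR (28 to 79 counts), NRL (6 to 15), SNAP25 (18 to 49) and SYT1 (411 to 566).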

Additional observations from a re-analysis of the deposited data

How the results depend on the processing

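Over the alternatives tried on single genes, 334 values kept direction and side of the threshold, 59 lost and 15 gained a call, and 12 changed sign. Library size alone gave 4 higher and 20 lower genes with a median log2FC of -0.14, and DESeq2 gave 5 and 3. Among all genes these were 1698 and 3289 with library size alone and 1782 and 1490 with DESeq2. A threshold of 1 on the absolute log2FC gave 0 and 0 for this family. Leaving out 1 library gave 2 to 9 higher and 3 to 18 lower. Where that left 1 library at a time, it was assumed to vary like the other group. Other scalings, filters and corrections gave 7 to 11 higher and 11 to 19 lower, and over all genes in each fit 2013 to 2869 higher and 2313 to 2845 lower. The signs that turned were near 0: MRPL43 (-0.0791 with library size, -0.0329 with upper-quartile factors, -0.0719 with the trend against mean log2-CPM) and MRPS18C (0.0981 with that trend). Without 1 library, MRPL43 ran from -0.0092 to 0.0601, MRPS18C from -0.317 to 0.154, MRPL42 from -0.0144 to 0.369, MRPS18B from -0.0716 to 0.0413 and MRPS12 from -0.0649 to 0.392. The cause was not tested.

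With the replicate number as a block, 9 genes were higher and 19 lower (median -0.04), the 22 calls included. Among all 12559 genes the block gave 2829 higher and 2664 lower, beside 2500 and 2367 without it. Deviations of same-numbered libraries correlated at 0.05 over all genes and -0.05 over these genes. With 2 libraries per time, these values cannot show whether the replicate numbers pair the samples. With 2 libraries per time and replicate differences beyond sampling noise (chi-square per degree of freedom 2.67 at 4 h and 3.84 at 8 h), changes of about 0.3 on the log2 scale lie at the limit of what was called.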

Other observations

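Other nuclear genes of mitochondrial gene expression included larger falls than the ribosomal protein genes. Among 12 genes of mitochondrial transcription and genome maintenance, POLRMT, the mitochondrial RNA polymerase, had 8.42 and 9.17 TMM-normalized CPM at 4 h and 13.8 and 15.6 at 8 h (log2FC 0.73, edgeR adjusted p = 0.00358), and TWNK was also higher (0.58). MTERF2 was lower, with 15.9 and 13.0 and then 4.05 and 5.05 (-1.68, edgeR adjusted p = 6.97e-06), as were TEFM, the transcription elongation factor (-0.85), and MGME1, a DNA exonuclease (-0.56). Of these 12 genes, 41.7% were called, beside 38.8% of all genes tested. Among 22 genes for mitochondrial aminoacyl-tRNAs (synthetases with QRSL1, GATB and GATC), 5 were lower, among them LARS2 (-0.68) and FARS2 (-0.54). The 2 that were higher, GARS1 (0.81) and KARS1 (0.39), also serve the cytosol. In this list 31.8% were called. POLRMT lost its call without 4 h replicate 1, and FARS2 without either 4 h library or 8 h replicate 1.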
